A study of Homo sapiens with 12 samples.

Results

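The genes described here are the ligands, receptors, SMAD proteins, inhibitors and ID target genes of the TGF-beta, BMP and activin pathways. They were listed by symbol from what is known of the pathway, with earlier results of these data known, under a rule that uses no measured value. Of the 47 genes in the rule, 40 were among the 13951 genes listed in the data, and all 40 had a mean of at least 1 CPM (reads of a gene scaled to the size of its library) over the 12 libraries. The ligands BMP4, BMP7, INHBA and INHBE and the secreted inhibitors FST, NOG and GREM1 were not listed, and the co-receptor gene TGFBR3 was not part of the rule.

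Poly(A) RNA was sequenced from 4 derivatives of CWR22Rv1, a human prostate carcinoma line grown from a xenograft that relapsed after castration. The study asked whether the effects of the homeobox factor MEIS1 in these cells depend on its partner HOXB13. Each derivative is a group with 3 libraries. Control cells carried Cas9 and received no guide RNA. LV-MEIS1 cells received a lentivirus that expresses MEIS1, and whether they also carry Cas9 is not stated. HOXB13ko cells were edited with CRISPR/Cas9 at HOXB13 and are a pool put together from edited clones, and HOXB13ko-LV-MEIS1 cells were made from HOXB13ko cells with the MEIS1 lentivirus. All 4 groups were kept in medium with serum and puromycin and were harvested after 48 h of culture. Each group is 1 derived line or pool, so the p-values measure the spread between libraries of a line, which may be technical, and an effect of the gene cannot be told apart from other differences between the derived lines.

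MEIS1 was at 4.25 ± 0.202 CPM (SD, n = 3) in Control, 47.4 ± 1.96 CPM in LV-MEIS1, 3.56 ± 0.118 CPM in HOXB13ko and 29.7 ± 0.364 CPM in HOXB13ko-LV-MEIS1, so the virus had raised its mRNA in both lines. HOXB13 mRNA went against a simple reading of the labels: it was at 196 ± 17.1 CPM in Control and 151 ± 0.77 CPM in LV-MEIS1, and at 327 ± 20.1 and 354 ± 25.1 CPM in the libraries labelled HOXB13ko and HOXB13ko-LV-MEIS1. The protein is not measured in these libraries. The authors state that loss of HOXB13 protein was checked by western blot, also in each clone before pooling. Directions drawn from these labels rest on the labels and on that blot, not on the mRNA. All 8 luminal prostate epithelial markers of a fixed list were listed, with summed levels of 2717 to 2769 CPM in LV-MEIS1 and 3302 to 3953 CPM in the other groups. Of 10 stromal markers 3 were listed (COL1A1, ACTA2 and PDGFRB), whose summed level was 23.4 to 27.0 CPM in Control, against 34.9 to 41.0 CPM in LV-MEIS1 and 28.6 to 34.9 CPM in the lines labelled HOXB13ko, and no endothelial marker was listed. The higher sum in LV-MEIS1 than in Control came from COL1A1, itself a target of TGF-beta, which went from a mean of 14.5 to 32.8 CPM, while the other stromal markers fell, ACTA2 from 8.88 to 5.62 CPM and PDGFRB from 1.41 to 0.266 CPM (limma eBayes adjusted p = 0.00075 and 0.00022). The part of these markers in the results was not tested. The libraries held an estimated 17150000 to 28620000 reads, at which 3 reads are 0.105 to 0.175 CPM. In bulk libraries, fewer cells that express a gene and less RNA per cell cannot be told apart.

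TGF-beta, activin and BMP ligands are secreted dimers that bring together type I and type II receptor kinases at the cell surface. The type I receptor phosphorylates SMAD proteins, SMAD2 and SMAD3 after TGF-beta or activin and SMAD1, SMAD5 and SMAD9 after BMP, which then enter the nucleus with SMAD4 and change transcription. The ID genes are among the best known targets of the BMP branch, and in the prostate TGF-beta is known for restraining the growth of epithelial cells, a restraint that many carcinomas lose.

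In Control cells the pathway was carried by transcripts of very different abundance. Per kilobase of annotated exon, ID1 was highest, at 108 CPM per kb, followed by ID3 at 87.8 and ID2 at 43.3 CPM per kb; these genes encode proteins that bind and block basic helix-loop-helix factors. The corepressor gene SKI, whose protein binds SMADs, followed at 16.7 CPM per kb and LTBP4, which encodes a protein that binds latent TGF-beta, at 15.7 CPM per kb. Among the receptor genes ACVR1B, which encodes a type I receptor for activin, was highest at 7.96 ± 0.11 CPM per kb (SD, n = 3). TGFBR2, the type II receptor for TGF-beta, was at 0.413 ± 0.0509 CPM per kb, and only ACVR1 and TGFB2 were lower among the members, at 0.398 ± 0.00727 and 0.249 ± 0.0515 CPM per kb. TGFBR2 and ACVR1 did not differ beyond their spread. Exon lengths are unions over all annotated transcripts, and the long unions of SMAD2 (36426 bases) and SMAD4 (19606 bases) lower their value on this scale.

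**Figure D1:**
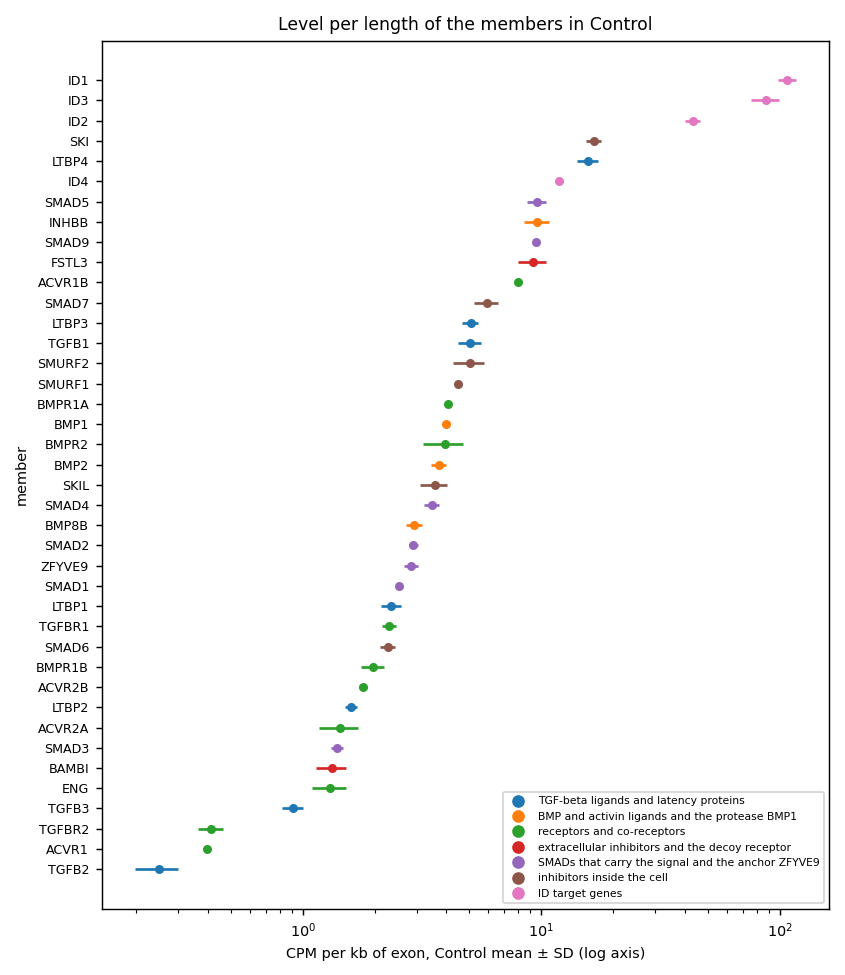
Level of each of the 40 listed members in Control, in CPM per kilobase of exon on a log axis, ordered by level and coloured by role; points are means and bars the SD over 3 libraries. ID1, ID3 and ID2 stand highest and TGFB2 lowest.

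Changes between groups are differences of log2(CPM + 0.5), given with their standard error (SE), and this scale understates the change of low genes. A member is said to have risen or fallen where limma's eBayes test against no change gave a Benjamini-Hochberg adjusted p under 0.05 over all 13951 genes, and to be called where limma's treat test showed a change beyond 1.5-fold at the same threshold. Both tests shared 1 estimate of the spread over the 12 libraries.

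INHBB, which encodes the beta B subunit of activin B and inhibin B, had the largest fitted changes of all members in LV-MEIS1 cells. It was at 28.8, 35.0 and 28.5 CPM in Control and at 9.85, 9.61 and 10.1 CPM in LV-MEIS1. In the libraries labelled HOXB13ko it was at 56.2, 57.3 and 55.8 CPM, and in HOXB13ko-LV-MEIS1 at 59.4, 62.4 and 63.6 CPM. The 4 groups did not overlap: LV-MEIS1 was lowest, Control next, and both lines labelled HOXB13ko highest. INHBB fell with MEIS1 in the line that was not edited (log2 difference −1.59 ± 0.07, treat adjusted p = 1.1e-07). In the line labelled HOXB13ko, MEIS1 moved it by 0.13 ± 0.07 with an eBayes adjusted p of 0.43. The test of the difference between these effects gave −1.72 ± 0.10 (treat adjusted p = 2.9e-06), and INHBB was 6.02-fold higher in HOXB13ko-LV-MEIS1 than in LV-MEIS1.

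BMPR1B, a type I receptor for BMP ligands, was the other member called in LV-MEIS1 against Control. Its level was 14.4, 11.6 and 12.7 CPM in Control and 5.40, 6.26 and 4.58 CPM in LV-MEIS1. The libraries labelled HOXB13ko held 14.9, 13.4 and 14.1 CPM and those of HOXB13ko-LV-MEIS1 16.4, 15.3 and 13.4 CPM. The 3 LV-MEIS1 libraries lay below the 9 others, which overlapped each other. BMPR1B fell by 1.19 ± 0.12 on the log2 scale in LV-MEIS1 (treat adjusted p = 0.0026), while in the line labelled HOXB13ko the difference with MEIS1 was 0.08 ± 0.12 (eBayes adjusted p = 0.78). The difference of the effects was −1.27 ± 0.16 (treat adjusted p = 0.02). That call was lost on leaving out Control replicate 1, LV-MEIS1 replicate 3, HOXB13ko replicate 2 or HOXB13ko-LV-MEIS1 replicate 1 or 2, with treat adjusted p between 0.051 and 0.063.

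BMP2, a BMP ligand that signals through BMPR1A and BMPR1B, followed the HOXB13ko label instead. It was at 13.3, 14.1 and 12.1 CPM in Control and 16.7, 15.8 and 16.9 CPM in LV-MEIS1. The libraries labelled HOXB13ko were at 49.7, 50.8 and 45.2 CPM and those of HOXB13ko-LV-MEIS1 at 64.9, 62.2 and 67.1 CPM. The groups did not overlap, with the lines labelled HOXB13ko well above the other two. BMP2 was 3.59-fold higher in HOXB13ko than in Control (log2 difference 1.84 ± 0.07, treat adjusted p = 3.3e-08), the single member called there. It also rose slightly with MEIS1 in the unedited line (0.32 ± 0.07, eBayes adjusted p = 0.0024). In the line labelled HOXB13ko the difference with MEIS1 was 0.41 ± 0.07, which missed the threshold (eBayes adjusted p = 0.056), and the test of the difference between the effects gave −0.10 ± 0.10 (eBayes adjusted p = 0.48).

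TGFB1, the main TGF-beta ligand of epithelial tissues, was lower with the HOXB13ko label. It was at 15.6, 18.5 and 15.2 CPM in Control, 24.3, 21.4 and 22.3 CPM in LV-MEIS1, 8.07, 8.58 and 7.99 CPM in HOXB13ko and 7.74, 9.67 and 9.21 CPM in HOXB13ko-LV-MEIS1. LV-MEIS1 was highest and Control next, and both lines labelled HOXB13ko overlapped each other below them. TGFB1 rose in LV-MEIS1 against Control (0.46 ± 0.10, eBayes adjusted p = 0.0021) and fell in HOXB13ko against Control (−0.95 ± 0.10, eBayes adjusted p = 8.9e-06, treat adjusted p = 0.077). Between HOXB13ko-LV-MEIS1 and LV-MEIS1 it was called, at −1.31 ± 0.10 (treat adjusted p = 6.6e-05). Of its 20 nearest listed genes on chromosome 19, 18 were also lower in HOXB13ko than in Control, with a median of −0.24. In HOXB13ko-LV-MEIS1 against LV-MEIS1, 11 of the 20 were lower, with a median of −0.04. LTBP4, itself a member, is among these 20 genes (chr19:40592883-40629818), so TGFB1 and LTBP4 are neighbours. TGFB1 overlaps HNRNPUL1 on the other strand by 215 bases, and the counting is not stated to use strand.

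ID4, which encodes an inhibitor of basic helix-loop-helix factors, was at 44.4, 47.8 and 46.3 CPM in Control and 73.6, 72.5 and 70.9 CPM in LV-MEIS1. It was at 41.5, 41.7 and 42.3 CPM in HOXB13ko and 39.4, 41.6 and 41.7 CPM in HOXB13ko-LV-MEIS1. The LV-MEIS1 libraries stood above all others and Control above both lines labelled HOXB13ko, which overlapped. ID4 rose by 0.64 ± 0.05 in LV-MEIS1 against Control (eBayes adjusted p = 1.7e-07) without exceeding 1.5-fold by treat, and was called between HOXB13ko-LV-MEIS1 and LV-MEIS1 at −0.81 ± 0.05 (treat adjusted p = 0.0046). In HOXB13ko against Control it fell by 0.14 ± 0.05 (eBayes adjusted p = 0.047).

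LTBP1 encodes a matrix protein that binds the latent TGF-beta complex and holds it outside the cell. Its level was 19.1, 16.9 and 15.8 CPM in Control, 29.0, 30.7 and 30.1 CPM in LV-MEIS1, 22.6, 23.3 and 22.4 CPM in HOXB13ko and 19.4, 19.6 and 20.8 CPM in HOXB13ko-LV-MEIS1. No groups overlapped, and LV-MEIS1 was highest and Control lowest. LTBP1 rose in LV-MEIS1 (0.78 ± 0.07, eBayes adjusted p = 1.1e-06) and was 0.19 ± 0.07 lower with MEIS1 in the line labelled HOXB13ko (eBayes adjusted p = 0.26). The difference of the effects, 0.96 ± 0.10, was called by treat with an adjusted p of 0.044. It lost that call with a pseudocount of 1, after quantile scaling, with the replicate number as a block, and on leaving out any library except Control replicate 1 (treat adjusted p between 0.051 and 0.126).

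**Figure D2:**
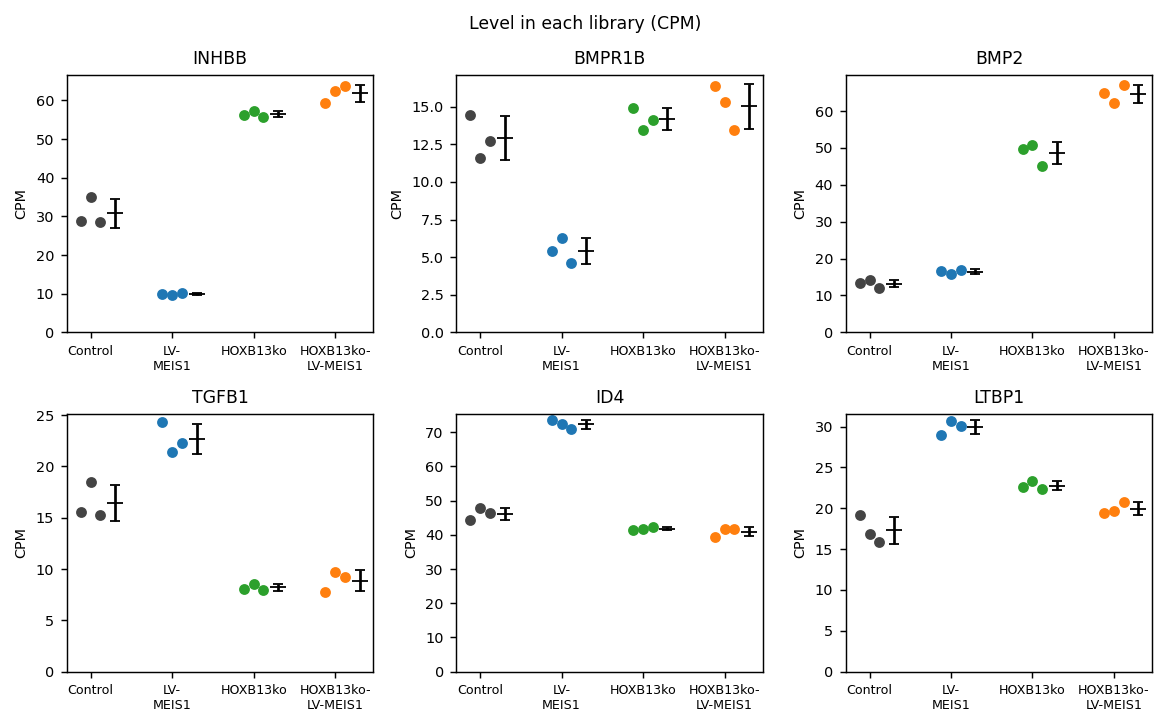
CPM of the 6 members called in any comparison, by group, with 1 point per library and, beside the points, the mean with a bar of 1 SD. INHBB and BMPR1B are lowest in LV-MEIS1, BMP2 is highest in the lines labelled HOXB13ko, and TGFB1, ID4 and LTBP1 are highest in LV-MEIS1.

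The windows upstream of 5 of these 6 genes are shown because their transcripts separate LV-MEIS1 from the other lines in opposite directions. Each is the 250 bases before the annotated start, on the gene's own strand and written 5′ to 3′, from RefSeq on GRCh38.p14; for BMPR1B and LTBP1, which have 3 starts in that table, the most upstream was taken, and BMP2 had no entry. Capitals mark matches on either strand to 4 short motifs, the MEIS core TGACAG, the posterior HOX core AATAAA, the BMP SMAD element GGCGCC and the SMAD box CAGAC.
INHBB, chr2:120345886-120346135, forward strand: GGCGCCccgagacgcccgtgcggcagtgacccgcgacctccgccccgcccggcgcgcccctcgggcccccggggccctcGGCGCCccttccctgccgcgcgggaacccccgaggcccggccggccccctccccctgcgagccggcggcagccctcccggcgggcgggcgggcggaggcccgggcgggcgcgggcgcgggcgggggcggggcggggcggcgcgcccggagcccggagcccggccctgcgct
BMPR1B, chr4:94757705-94757954, forward strand: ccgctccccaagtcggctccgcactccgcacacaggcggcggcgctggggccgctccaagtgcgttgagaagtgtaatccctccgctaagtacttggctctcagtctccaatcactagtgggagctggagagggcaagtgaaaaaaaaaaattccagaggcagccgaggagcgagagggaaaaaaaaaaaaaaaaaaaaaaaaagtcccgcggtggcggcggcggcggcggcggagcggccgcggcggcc
TGFB1, chr19:41353923-41354172, reverse strand: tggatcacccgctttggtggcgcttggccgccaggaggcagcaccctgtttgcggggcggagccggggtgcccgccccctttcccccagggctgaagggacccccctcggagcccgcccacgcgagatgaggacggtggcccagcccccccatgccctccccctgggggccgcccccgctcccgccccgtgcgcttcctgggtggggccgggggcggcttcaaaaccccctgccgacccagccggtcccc
ID4, chr6:19837120-19837369, forward strand: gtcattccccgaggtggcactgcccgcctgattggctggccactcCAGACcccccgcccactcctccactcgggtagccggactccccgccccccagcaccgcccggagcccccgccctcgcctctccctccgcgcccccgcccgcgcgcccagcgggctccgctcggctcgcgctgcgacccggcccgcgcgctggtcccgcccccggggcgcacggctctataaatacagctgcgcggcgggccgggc
LTBP1, chr2:32946703-32946952, forward strand: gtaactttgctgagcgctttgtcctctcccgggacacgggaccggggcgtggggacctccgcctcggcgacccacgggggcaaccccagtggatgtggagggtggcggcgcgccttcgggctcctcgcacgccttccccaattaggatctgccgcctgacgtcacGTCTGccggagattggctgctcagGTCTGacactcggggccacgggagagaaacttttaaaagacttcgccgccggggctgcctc

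INHBB held 2 copies of GGCGCC, in a window with 89.6% GC, and ID4 1 copy and LTBP1 2 copies of the CAGAC box. BMPR1B and TGFB1 held none of the 4. Over 35116 windows of the same length these letters were found in 13.0% (TGACAG), 16.0% (AATAAA), 16.4% (GGCGCC) and 38.0% (CAGAC) of windows, and the median GC content was 58%. Neither TGACAG nor AATAAA was found in the 5 windows, which says only that these letters are not in these bases. The INHBB gene lies at chr2:120346136-120351803, BMPR1B at chr4:94757955-95158448 and ID4 at chr6:19837370-19842197 on the forward strand, and TGFB1 at chr19:41301587-41353922 on the reverse strand (GENCODE v44, GRCh38). The 20 listed genes nearest to INHBB had a median difference of 0.03 in LV-MEIS1 against Control, with 9 lower. Those nearest to BMPR1B, ID4 and LTBP1 had medians of 0.15, 0.14 and 0.15, with 4, 6 and 4 of 20 lower. In the difference of the effects the medians for INHBB, BMPR1B, ID4 and LTBP1 were −0.06, 0.15, 0.11 and 0.29. Most genes around LTBP1 and around ID4 thus moved in the direction of these members, and most around BMPR1B moved opposite to it. The part of the region was not tested.

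LV-MEIS1 against Control asks what goes with MEIS1 in cells whose HOXB13 was not targeted. By treat 2 of the 40 members were called, INHBB and BMPR1B, both lower, or 5% of the members against 3.99% of all genes (1.75% higher and 2.24% lower). By eBayes 22 changed, 16 higher and 6 lower, which is 55% against 44.5% of all genes (23.2% higher and 21.3% lower), and the median difference was 0.11 against 0.01 for all genes. The 3 replicates of a group lay wholly above or below the other group for 25 members (17 above and 8 below), 62.5% against 51.3% of all genes (26.3% above and 25.1% below). The gains were most frequent among TGF-beta ligands and latency proteins, where 5 of 7 rose and 1 fell.

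TGFB3, a TGF-beta ligand, was at 5.27, 4.71 and 4.32 CPM in Control and 8.19, 8.95 and 9.50 CPM in LV-MEIS1. LTBP4 was at 121, 142 and 119 CPM in Control and 180, 173 and 204 CPM in LV-MEIS1, and LTBP3, of the same protein family, at 53.8, 62.7 and 58.2 and at 73.9, 74.9 and 87.6 CPM. None of these groups overlapped, with LV-MEIS1 above in each, and TGFB3 rose by 0.83 ± 0.11 (eBayes adjusted p = 3.9e-05), LTBP4 by 0.54 ± 0.09 and LTBP3 by 0.43 ± 0.08. LTBP2, a family member not known to bind latent TGF-beta, went the other way: it was at 15.2, 14.7 and 13.6 CPM in Control and 9.63, 10.2 and 11.0 CPM in LV-MEIS1 (−0.48 ± 0.08, eBayes adjusted p = 0.00026). In the lines labelled HOXB13ko, LTBP2 was at 15.0, 15.0 and 14.5 CPM and with MEIS1 at 13.9, 15.3 and 14.3 CPM, overlapping each other and above LV-MEIS1.

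Among the 10 receptor genes 4 rose and BMPR1B fell in LV-MEIS1, or 50% against 44.5% of all genes (23.2% higher and 21.3% lower). BMPR2, the type II receptor of BMP ligands, was at 60.4, 43.1 and 45.1 CPM in Control and 64.0, 82.6 and 70.5 CPM in LV-MEIS1, without overlap (0.55 ± 0.13, eBayes adjusted p = 0.0027). TGFBR1, the type I receptor for TGF-beta, rose by 0.40 ± 0.08, ACVR1, a type I receptor that BMP ligands use, by 0.47 ± 0.10, and TGFBR2 by 0.34 with an eBayes adjusted p of 0.048. Of the other receptor genes, ACVR1B, ACVR2A, ACVR2B, BMPR1A and the co-receptor gene ENG did not pass. The mRNA of TGFBR1 and TGFBR2 was thus higher in LV-MEIS1, with TGFBR2 only just past the threshold, at means of 2.83 CPM in Control and 3.72 CPM in LV-MEIS1. The BMP receptor genes that passed moved in opposite directions.

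Among SMADs and inhibitors, the changes in LV-MEIS1 were small. SMAD3 rose by 0.22, SMAD5 by 0.37 and ZFYVE9, which encodes a membrane anchor that presents SMADs to the receptor, by 0.31, and SMAD9 fell by 0.14. SKIL, a corepressor that binds SMADs and is itself induced by TGF-beta, was at 32.1, 24.8 and 30.2 CPM in Control and 38.4, 47.6 and 39.0 CPM in LV-MEIS1, without overlap (0.52 ± 0.11, eBayes adjusted p = 0.0017). SKI fell by 0.17 and SMURF2, a ubiquitin ligase that acts on receptors and SMADs, rose by 0.22 with replicates that overlapped. BMP1, a protease that cleaves matrix proteins and BMP antagonists, was at 26.9, 28.4 and 29.0 CPM in Control and 22.3, 24.1 and 23.5 CPM in LV-MEIS1, below Control in every library (−0.27 ± 0.07, eBayes adjusted p = 0.0055). ID1, ID2 and ID3, the classical BMP targets, did not pass.

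**Figure D3:**
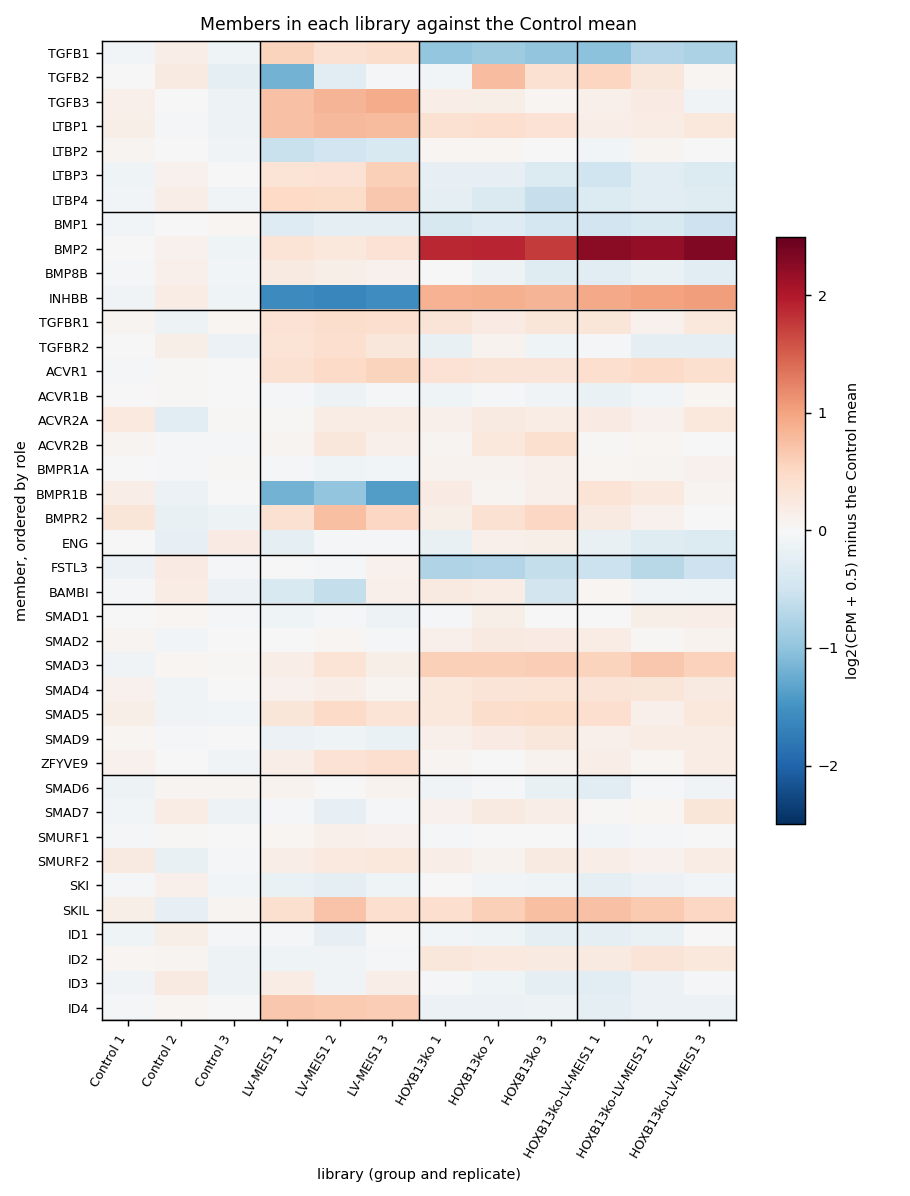
Level of the 40 listed members in the 12 libraries as the difference of log2(CPM + 0.5) from each gene's Control mean, with members ordered by role. INHBB and BMPR1B are low in the 3 LV-MEIS1 libraries and BMP2 is high in the 6 libraries labelled HOXB13ko.

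HOXB13ko against Control asks what goes with the HOXB13ko label when MEIS1 is at its low endogenous level. BMP2 alone was called by treat (background 1.41% of all genes, 0.652% higher and 0.76% lower), and by eBayes 20 of 40 members changed, 14 higher and 6 lower, against 32.9% of all genes (16.5% higher and 16.4% lower). The median difference of the members was 0.11 and that of all genes −0.002. The replicates did not overlap for 21 members, 52.5% against 44.9% of all genes, with 14 members above (21.8% of all genes) and 7 below (23.1%). Signal-carrying SMADs and their anchor moved 1 way where they moved: 5 of 7 rose and none fell.

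SMAD3, which carries the TGF-beta and activin signal, was at 13.1, 14.6 and 14.3 CPM in Control and 21.3, 21.4 and 21.8 CPM in HOXB13ko, without overlap (0.60 ± 0.08, eBayes adjusted p = 4.4e-05). SMAD5, SMAD4, SMAD9 and SMAD2 rose by less, by 0.39, 0.31, 0.20 and 0.19, and SMAD1 and ZFYVE9 did not pass. SKIL was at 38.8, 43.9 and 49.2 CPM in HOXB13ko, above Control (0.59 ± 0.11, eBayes adjusted p = 0.0011). INHBB rose as well (0.87 ± 0.07, eBayes adjusted p = 1e-06), with a treat adjusted p of 0.056 that passed under several settings. Of the receptor genes, ACVR1 rose by 0.33, BMPR2 by 0.35 with overlapping replicates, TGFBR1 by 0.27 and ACVR2B, a type II receptor for activins, by 0.25.

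The members that fell in HOXB13ko included extracellular ones. FSTL3, which encodes a secreted protein that binds and blocks activins, was at 25.0, 32.1 and 26.7 CPM in Control and 16.4, 16.5 and 18.3 CPM in HOXB13ko, without overlap (−0.69 ± 0.09, eBayes adjusted p = 8.4e-05). LTBP4 was at 108, 98.0 and 84.4 CPM in HOXB13ko, below Control (−0.39 ± 0.09, eBayes adjusted p = 0.004). BMP1 was at 21.2, 22.5 and 20.7 CPM in HOXB13ko, also below Control (−0.38 ± 0.07, eBayes adjusted p = 0.00084). LTBP3 fell by 0.25, at 50.3, 50.1 and 45.8 CPM. Against these, LTBP1 rose by 0.39 ± 0.07. Of the ID genes, ID2 rose by 0.26 ± 0.06 (eBayes adjusted p = 0.0033), from 99.5, 100 and 87.7 CPM in Control to 117, 114 and 112 CPM, and ID4 fell, while ID1 and ID3 did not pass.

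**Figure D4:**
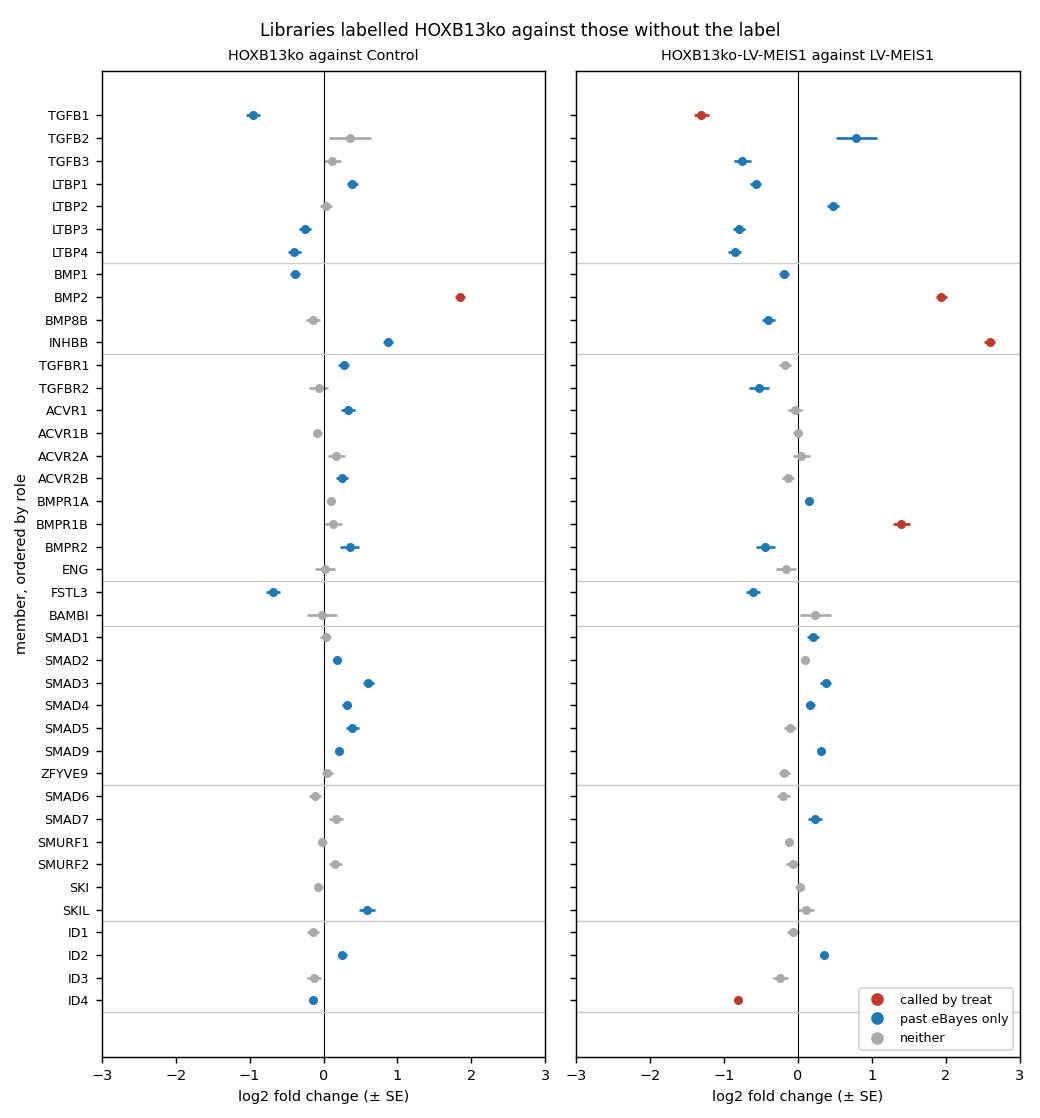
Log2 difference of each listed member in HOXB13ko against Control (without added MEIS1) and in the same comparison with added MEIS1, with error bars of 1 SE and colours for members called by treat, past eBayes only, or neither. BMP2 is high in both comparisons and TGFB1 low in both, while INHBB and BMPR1B differ more where MEIS1 is expressed.

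HOXB13ko-LV-MEIS1 against HOXB13ko asks what goes with MEIS1 in the line labelled HOXB13ko. No member was called by treat (background 0.00717%) and none passed eBayes (background 0.0502%, 0.0215% higher and 0.0287% lower). At an unadjusted p under 0.05, limma's treat counted 0 members and 9 of all genes. At the same limit eBayes counted 4 of 40 members and 2070 of all 13951 genes, a lower share of the members than of all genes. The 4 members were BMP2, ACVR2B, LTBP1 and the co-receptor gene ENG, of which BMP2 was higher and the others lower. With only 7 of all genes past eBayes, a change of a given size was harder to pass here than in LV-MEIS1 against Control. BMP2 passed there with a difference of 0.32 and did not pass here with 0.41. The median difference was −0.03 against 0.01 for all genes, and the replicates did not overlap for 5 members, 12.5% against 21.1% of all genes (3 above and 2 below, against 10.6% each way). The 95% intervals of the 40 differences ran between −0.67, the lower bound of TGFB2, and 0.56, the upper bound of BMP2, so the bounds lie outside a change of 1.5-fold only for TGFB2, whose level was low, and ENG (−0.59). MEIS1 mRNA was lower in this line than in LV-MEIS1, and what share of the gap between the lines goes with that dose was not tested.

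The difference of the MEIS1 effects, the effect in the unedited line minus the effect in the line labelled HOXB13ko, was tested directly. Treat called 3 members, INHBB and BMPR1B in the lower direction and LTBP1 in the higher, or 7.5% against 2.93% of all genes (1.31% higher and 1.62% lower), and eBayes passed 13, 10 of them higher, or 32.5% against 34.2% of all genes (18% higher and 16.2% lower). The median was 0.12 against 0.02 for all genes. By role, 4 TGF-beta ligands and latency proteins had a more positive effect in the unedited line (LTBP1, TGFB3, LTBP3 and LTBP4) and LTBP2 a more negative one. TGFB3 gave 0.87 ± 0.16 (eBayes adjusted p = 0.001). It was at 5.36, 5.30 and 4.93 CPM in HOXB13ko and 5.20, 5.58 and 4.47 CPM in HOXB13ko-LV-MEIS1, which overlapped. BMPR2 gave 0.80 ± 0.18 (eBayes adjusted p = 0.0036), and its 3 libraries of HOXB13ko-LV-MEIS1, at 56.9, 52.8 and 49.0 CPM, overlapped those of HOXB13ko at 54.4, 64.2 and 70.6 CPM. SMAD5, SKIL, TGFBR1, ACVR2B and ID4 completed the list in the higher direction.

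**Figure D5:**
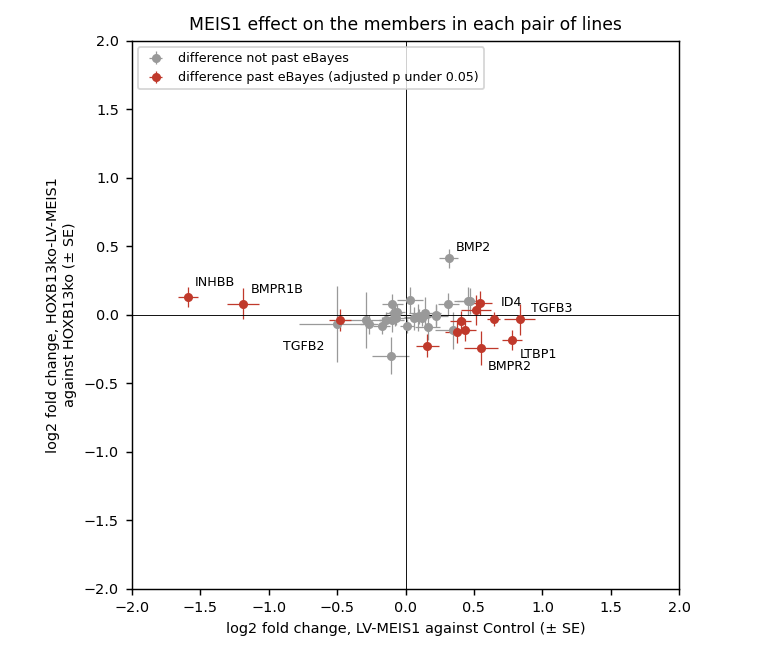
Log2 difference of each listed member with MEIS1 in the unedited line against the same difference in the line labelled HOXB13ko, with error bars of 1 SE and red for a difference between the effects past eBayes. INHBB and BMPR1B lie far below zero in the unedited line and near zero in the other, and no member passed eBayes in the line labelled HOXB13ko.

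HOXB13ko-LV-MEIS1 against LV-MEIS1 compares the lines with raised MEIS1, and it shares the LV-MEIS1 libraries with the comparison to Control. Treat called 5 members, INHBB, BMP2 and BMPR1B higher and TGFB1 and ID4 lower, or 12.5% against 6.71% of all genes (3.29% higher and 3.42% lower). By eBayes 23 changed, 12 higher and 11 lower, or 57.5% against 50.1% of all genes (24% higher and 26.1% lower), and with libraries scaled to an equal sum 24 changed with 8 higher, so the balance of directions depended on scaling. The replicates did not overlap for 27 members, 67.5% against 58.3% of all genes, with 12 above (28.2% of all genes) and 15 below (30.1%). BMPR1B was 2.64-fold higher in HOXB13ko-LV-MEIS1 (1.40 ± 0.12, treat adjusted p = 9.1e-05) and BMP2 3.84-fold higher (1.94 ± 0.07, treat adjusted p = 1.5e-09).

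In this comparison all 7 TGF-beta ligand and latency genes changed by eBayes, against 50.1% of all genes (24% higher and 26.1% lower). Of these 7, 5 fell and 2 rose, LTBP2 by 0.48 ± 0.08 (eBayes adjusted p = 0.00019) and TGFB2. LTBP4 was at 99.4, 104 and 103 CPM in HOXB13ko-LV-MEIS1, below every LV-MEIS1 library (−0.86 ± 0.09, treat adjusted p = 0.058), and LTBP3 at 41.1, 48.5 and 45.8 CPM (−0.80 ± 0.08, treat adjusted p = 0.13). TGFB3 fell by 0.75 ± 0.11 and LTBP1 by 0.57 ± 0.07. TGFB2, the lowest ligand, was at 0.38, 1.13 and 1.44 CPM in LV-MEIS1 and 2.38, 1.93 and 1.55 CPM in HOXB13ko-LV-MEIS1 (0.79 ± 0.28, eBayes adjusted p = 0.029). Its Control libraries, at 1.5, 1.82 and 1.20 CPM, and those labelled HOXB13ko, at 1.40, 2.90 and 2.08 CPM, overlapped, and at this level its error was the widest of the members.

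Further members outside the ligand and latency genes also differed between these lines. FSTL3 was at 27.9, 27.2 and 30.1 CPM in LV-MEIS1 and 19.0, 16.9 and 19.4 CPM in HOXB13ko-LV-MEIS1 (−0.61 ± 0.09, eBayes adjusted p = 7.4e-05). BMPR2 fell by 0.44 and TGFBR2 by 0.53, and BMPR1A, the other type I receptor of BMP2, rose by 0.15. SMAD3 rose by 0.37, SMAD9 by 0.31, SMAD1 by 0.20, SMAD4 by 0.17 and the inhibitory SMAD7 by 0.23. ID2 was at 88.8, 89.9 and 92.0 CPM in LV-MEIS1 and 111, 119 and 115 CPM in HOXB13ko-LV-MEIS1, without overlap (0.35 ± 0.06, eBayes adjusted p = 0.00012). BMP8B fell by 0.40 ± 0.09, though its reads cannot be safely parted from those of the near-identical BMP8A.

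Over all 12 libraries, the members sorted into a few patterns. In 9 of 40 members (22.5%, against 15.1% of all genes) the 3 LV-MEIS1 libraries lay above the other 9, and these were TGFB1, TGFB3, LTBP1, LTBP3, LTBP4, TGFBR1, TGFBR2, ID4 and the ubiquitin ligase gene SMURF1. LV-MEIS1 lay below the others for INHBB, BMPR1B, LTBP2 and SMAD9, 10% against 14% of all genes. The 6 libraries labelled HOXB13ko lay above the 6 others for 7 members (17.5% against 8.82%), BMP2, INHBB, BMPR1A, SMAD3, SMAD4, SMAD9 and ID2, and below them for 5 (12.5% against 8.21%), TGFB1, LTBP3, LTBP4, FSTL3 and ID4. Control lay above the other 9 libraries for BMP1 (1 member, 2.5% against 6.49% of all genes) and below them for 6 members (15% against 6.53%), ACVR1, BMP2, LTBP1, SKIL, SMAD3 and TGFBR1. HOXB13ko-LV-MEIS1 lay above the others for BMP2 and INHBB (5% against 4.3%) and below them for 0 members (3.69% of all genes), and HOXB13ko lay above or below them for 0 members (1.3% and 1.42% of all genes). These shares describe the members and carry no test. A few members passed eBayes in no comparison: ID1, which ranged from 111 to 146 CPM, and ID3, from 108 to 152 CPM, both with overlap between all groups, and the decoy receptor gene BAMBI, the inhibitory SMAD6, SMURF1, ACVR1B, ACVR2A and ENG.

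Targets and further components of the pathway were taken from fixed lists. Of 14 listed TGF-beta target genes, LV-MEIS1 against Control called 1 higher and 1 lower (14.3% against 3.99% of all genes), and by eBayes 4 rose and 5 fell (64.3% against 44.5%). COL1A1, a fibrillar collagen, went up from a mean of 14.5 CPM to one of 32.8 CPM (1.15 ± 0.08, treat adjusted p = 0.00025), and VIM, the mesenchymal filament protein vimentin, fell from 13.2 to 3.88 CPM (−1.64 ± 0.16, treat adjusted p = 0.00025). The median of the 14 was −0.002, against 0.01 for all genes. In HOXB13ko against Control, THBS1, whose product thrombospondin can activate latent TGF-beta, rose from 15.0 to 41.2 CPM, FN1, the matrix protein fibronectin, fell from 46.7 to 16.2 CPM, and the median was 0.02, against −0.002 for all genes. These 2 calls are 14.3% of the list against 1.41% of all genes, and by eBayes 3 rose and 2 fell (35.7% against 32.9%). The listed targets thus moved in both directions in each of these comparisons. HOXB13ko-LV-MEIS1 against LV-MEIS1 called THBS1 and LOX higher and FN1 and COL1A1 lower (28.6% against 6.71% of all genes). HOXB13ko-LV-MEIS1 against HOXB13ko called none by treat or eBayes. At an unadjusted p under 0.05, eBayes counted 3 of the 14 and 2070 of all 13951 genes, and treat 0 of the 14 and 9 of all genes. The 9 listed BMP targets other than the ID genes, which include SMAD6 and SMAD7, held no called gene in any comparison, and by eBayes 1 rose and 3 fell in LV-MEIS1 against Control (44.4% against 44.5% of all genes) and 0 rose and 3 fell in HOXB13ko against Control (33.3% against 32.9%). Their medians in these comparisons were −0.10 and −0.13.

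Of 37 listed further components, LV-MEIS1 against Control called 3, all lower (8.11% against 3.99% of all genes), while by eBayes 15 rose and 8 fell (62.2% against 44.5%), with a median of 0.16 against 0.01. SOSTDC1, a secreted BMP antagonist, fell from a mean of 17.3 to 6.47 CPM (−1.35, treat adjusted p = 2.1e-05), and BMP6, a BMP ligand, from 3.41 to 1.27 CPM (−1.16, treat adjusted p = 0.019). PIAS4, a SUMO ligase that acts on SMADs, fell from 39.8 to 19.2 CPM (−1.03, treat adjusted p = 0.003), and 17 of its 20 nearest listed genes on chromosome 19 were lower too, with a median of −0.71. In HOXB13ko against Control 1 was called: NEDD4L, a ubiquitin ligase that acts on activated SMAD2 and SMAD3, fell from 128 to 41.8 CPM (−1.60 ± 0.06, treat adjusted p = 5.2e-08), or 2.7% of the list against 1.41% of all genes. By eBayes 12 rose and 4 fell there (43.2% against 32.9%), with a median of 0.10 against −0.002. HOXB13ko-LV-MEIS1 against LV-MEIS1 called 8 (21.6% against 6.71% of all genes), with SOSTDC1, BMP6, GDF15 and PIAS4 higher and NEDD4L, CHRD, ITGB8 and TWSG1 lower. With MEIS1 in the line labelled HOXB13ko none was called by treat or eBayes. At an unadjusted p under 0.05, eBayes counted 4 of the 37 and 2070 of all 13951 genes, and treat 0 of the 37 and 9 of all genes. CHRD and TWSG1 encode secreted proteins that bind BMPs, and ITGB8 an integrin chain that activates latent TGF-beta. In LV-MEIS1 against Control, CHRD and TWSG1 went opposite to SOSTDC1. CHRD rose from a mean of 2.86 to 5.71 CPM (0.92, eBayes adjusted p = 0.0015) and TWSG1 from 22.3 to 41.3 CPM (0.87, eBayes adjusted p = 3.4e-06).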

How the data were processed

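RNA was sequenced in 12 libraries, 4 groups of 3, and groups and replicate numbers come from the labels. The deposited values are CPM, which the authors made from single-end reads: the submitters' processing notes name CASAVA 1.8, Trimmomatic 0.38, kallisto 0.43.1 and edgeR 3.22.2, and per the methods transcript estimates on GRCh38 were summed to genes and low genes removed. kallisto shares a read among the transcripts it fits, and strand is not stated to have been used, so near-identical and overlapping genes are uncertain. Each file held 13993 rows named by symbol, of which 42 exact repeats were dropped, leaving 13951 genes with CPM sums of 940564 to 992328. Depth was estimated from the steps between low CPM values. Only 40.7% to 55.1% of the values under 1 CPM lay within 0.05 reads of a whole number, and so whole reads could not be recovered and count models were not used. Within groups, libraries correlated at 0.990 to 0.995 on the log2 scale, and up to 0.994 across groups.

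Values were analysed as log2(CPM + 0.5) in limma 3.58.1 (R 4.3.3), with 1 mean per group, a trended prior, and no replicate term. Members were called by treat against a fold change of 1.5, and changes against no change were tested by eBayes, both at a Benjamini-Hochberg adjusted p under 0.05 over 13951 genes. The scripts were tested on simulated data. Members and gene lists were chosen with earlier results of these data known, so no count over them is independent support. Values in every library are given for members called in any comparison and, in each pairwise comparison, for up to 4 members with the highest and up to 4 with the lowest change past eBayes; genes outside the members are named where treat called them. Alternatives were other pseudocounts, scalings, priors, filters and thresholds, a replicate block, and leaving out each library. Gene positions and exon lengths come from GENCODE v44, and promoter windows from RefSeq on GRCh38.p14, where 37 of 40 members matched. Figures were drawn in matplotlib 3.10.9 (Python 3.11.15).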

Additional observations from a re-analysis of the deposited data

Results flagged for a closer look

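For 13 members the MEIS1 effect (log2, the effect in the unedited line minus that in the line labelled HOXB13ko) differed between the lines by the direct test in limma (eBayes adjusted p under 0.05). The difference was negative for INHBB (−1.72), BMPR1B (−1.27) and LTBP2 (−0.44). It was positive for ACVR2B (0.39), TGFBR1 (0.45), LTBP4 (0.46), SKIL (0.48), SMAD5 (0.50), LTBP3 (0.54), ID4 (0.67), BMPR2 (0.80), TGFB3 (0.87) and LTBP1 (0.96). The groups have 3 libraries each, too few to look for single libraries that stand apart.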

How the results depend on the processing

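Of 1703 recomputed results of single members, 1525 kept their side of the threshold and 178 did not. No result changed direction, but many of them could not. A stricter threshold, a robust prior, the filter, the replicate block and a fit on only the libraries compared leave the fitted difference of a member as it is. The same holds for leaving out a library of a group that is not compared. Every pairwise treat call kept it; the 21 lost treat results were LTBP1 (15) and BMPR1B (6) in the difference of the MEIS1 effects. Replacing treat by eBayes with a fitted fold change over 1.5 raised the called members from 2 to 5 in LV-MEIS1 against Control, from 1 to 6 in HOXB13ko against Control, from 5 to 10 in HOXB13ko-LV-MEIS1 against LV-MEIS1 and from 3 to 6 in the difference. In HOXB13ko against Control treat called 2 members with a pseudocount of 0.1, scaling by equal sums, median of ratios or quantiles, or a robust prior. An adjusted p under 0.01 left 12 of 20 members past eBayes there and 1 of 3 called by treat in the difference. With a robust prior 1 member, BMP2, passed eBayes in HOXB13ko-LV-MEIS1 against HOXB13ko. With an equal sum the median of the members in the difference was 0.16.

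Leaving out 1 library in turn, treat called 2 to 3, 1 to 2, 0, 5 to 6 and 1 to 2 members for LV-MEIS1 over Control, for HOXB13ko over Control, for HOXB13ko-LV-MEIS1 over HOXB13ko and over LV-MEIS1, and for the difference. In the same order eBayes passed 17 to 21, 13 to 22, 0 to 1, 18 to 24 and 11 to 15 members. The lowest count in HOXB13ko against Control, 13, came without HOXB13ko replicate 3. The medians there ran from 0.063, without Control replicate 2, to 0.13. The treat count in the difference was 1 without LV-MEIS1 replicate 3, HOXB13ko replicate 2, or HOXB13ko-LV-MEIS1 replicate 1 or 2. The cause of these shifts was not tested.

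The replicate numbers did not pair the libraries: 2 of 18 same-numbered pairs correlated over 0.1 (range −0.21 to 0.15), and 0 of 12 libraries correlated best with its own number. With the replicate block treat called 2, 1, 0, 5 and 2 members and eBayes passed 18, 18, 0, 22 and 12. Scaling moved the median of all genes by at most 0.039 (log2). Depth limits low members such as TGFB2.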
